A study of Homo sapiens with 16 samples.

Results

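The run is a dense series of antibody-captured peaks on chromosome 13 of the human genome (hg38), between 61.7 and 66.3 Mb, in the gene desert between PCDH20 and PCDH9. Its members were selected on peak position: every peak of the 9 deposited lists with its midpoint inside these bounds, which were set because the peaks are crowded there. They number 3276 of the 40118 peaks in all lists. The density was therefore used to choose the run, and every contrast of the run with the reference stretch, chromosome 13 from 50 to 61.7 Mb, or with the rest of the genome is given as a description with no test.

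All lists come from HEK293T, a human embryonic kidney cell line, and from the 1H6 antibody, which recognises G-quadruplexes. G4 DNA-IPnat and G4 DNA-IPdenat used purified genomic DNA of untransduced cells, kept native or heat-denatured and snap-chilled. G4-ChIP used fixed and sonicated chromatin, and AbC G4-ChIP used permeabilized cells that met the antibody before the final fixation. The 6 AbC lists are pairs of cells with a non-targeting shRNA (CT) and cells with an shRNA against CGGBP1 (KD): CTnuc and KDnuc, read on an Ion Torrent S5, CTut and KDut, in which preformed G4 control DNA was added to the lysate, and CTtr and KDtr, in which control and carrier DNA were transfected into the cells. All libraries other than the nuc pair were read on a MinION. Since 4 replicates had been combined into each library ahead of sequencing, a list is 1 library, and no spread between replicates exists for any list. The cell type and the CGGBP1 level could not be checked from peak lists.

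A G-quadruplex is a stack of guanine tetrads that a single strand can fold where several runs of guanines lie close together, and such runs are most frequent in GC-rich, gene-rich DNA and at promoters. A gene desert is a long stretch with few or no protein-coding genes, usually AT-rich, late replicating and packed as heterochromatin. PCDH20 and PCDH9, which bound this desert, encode protocadherins, cell adhesion proteins of the nervous system. CGGBP1 is a protein that binds GC-rich repeats.

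The sequences that the run's peaks hold are shown for 3 places, each as the central 300 bases of the plus strand of hg38, with runs of at least 3 guanines or 3 cytosines in capitals. The first is the peak of highest fold in any AbC list (KDnuc), and the second is the peak with most GGG and CCC triplets per kb of all lists (KDnuc). The third, chosen after its values had been seen, is a break that KDut, CTtr and KDtr share between very long peaks.
KDnuc, highest fold, chr13:65349154-65349453: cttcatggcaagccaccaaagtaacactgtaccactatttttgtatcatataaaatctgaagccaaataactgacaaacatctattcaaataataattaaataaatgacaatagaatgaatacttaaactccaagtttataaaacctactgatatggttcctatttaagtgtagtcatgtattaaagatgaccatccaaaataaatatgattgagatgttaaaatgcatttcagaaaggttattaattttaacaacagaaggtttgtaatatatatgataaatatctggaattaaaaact
KDnuc, most triplets, chr13:63738285-63738584: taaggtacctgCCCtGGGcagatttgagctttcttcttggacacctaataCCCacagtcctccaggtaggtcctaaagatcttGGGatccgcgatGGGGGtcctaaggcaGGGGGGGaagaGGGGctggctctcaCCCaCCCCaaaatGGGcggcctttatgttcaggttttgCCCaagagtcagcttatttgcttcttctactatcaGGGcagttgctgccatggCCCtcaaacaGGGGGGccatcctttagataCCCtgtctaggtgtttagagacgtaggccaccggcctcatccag
Shared break, chr13:61962050-61962349: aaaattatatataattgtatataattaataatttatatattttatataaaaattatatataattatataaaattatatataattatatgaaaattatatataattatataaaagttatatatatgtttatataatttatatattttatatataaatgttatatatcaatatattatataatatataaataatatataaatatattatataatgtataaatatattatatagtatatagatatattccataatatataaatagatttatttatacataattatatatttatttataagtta
The central 300 bases of the KDnuc peak of highest fold held 26.3% GC and no run of either kind, while the whole peak of 914 bp had 30.2% GC and 9.85 triplets per kb. The triplet-rich sequence held 54.7% GC, 8 G runs and 7 C runs, and the shared break held 4.67% GC and no run. None of the 3 sequences contained the canonical signature, which is a row of 4 or more GGG runs, on either strand, with loops of 1 to 7 bases between them.

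The run was present in 8 of the 9 lists. It held 99 peaks of G4 DNA-IPdenat, 328 of G4-ChIP, 376 of CTnuc, 724 of KDnuc, 412 of CTut, 374 of KDut, 483 of CTtr and 480 of KDtr. G4 DNA-IPnat had none of its 226 peaks there, which allows a share of up to 1.33%. Per Mb this was 21.5 peaks for G4 DNA-IPdenat, 71.3 for G4-ChIP, 81.7 for CTnuc, 157 for KDnuc, 89.6 for CTut, 81.3 for KDut, 105 for CTtr and 104 for KDtr. The AbC and G4-ChIP lists thus shared a dense run that was less dense in denatured DNA and not detected in native DNA. In denatured DNA the run was still 4.14 times as dense in peaks as the other chromosomes. The run is 0.152% of chromosomes 1 to 22 and X. It carried 22.5% of the G4-ChIP peaks (exact 95% interval 20.4 to 24.8%) and 20.4% of the CTtr peaks (18.8 to 22.1%), but 0.630% of the G4 DNA-IPdenat peaks (0.512 to 0.767%). These intervals cover counting error only. The bound of 1.33% for native DNA lies above the G4 DNA-IPdenat share, so native and denatured DNA are not told apart by these shares.

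The reference stretch, 11.7 Mb next to the run, was nearly empty. It held 40 peaks of G4 DNA-IPdenat, 1 of KDnuc and none of the other lists. The floor for an empty list was set at 3 peaks per library, or 0.256 peaks per Mb. Against it, the density of the run was at least 278-fold higher in G4-ChIP, 319-fold in CTnuc, 349-fold in CTut, 317-fold in KDut, 409.5-fold in CTtr and 407-fold in KDtr. In KDnuc the ratio was 1841 (exact 95% interval 329 to 72834, from 1 reference peak, which is below the floor, so that this ratio cannot be set beside the bounds above), and in G4 DNA-IPdenat it was 6.30 (4.32 to 9.33). The intervals of these ratios also cover counting error only. These bounds and ratios depend on the peaks kept: with -log10 q of at least 4, G4 DNA-IPdenat was at 15.9, G4-ChIP at least 23.7 and CTtr, with 9 peaks left in the run, at least 7.63. When the genome outside chromosome 13 was the reference, the ratios of the AbC lists lay between 75.5 in KDnuc and 202 in KDtr, with G4-ChIP at 270.1 and G4 DNA-IPdenat at 4.14.

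Covered bases ordered the lists differently from peak counts. Peaks covered 4.65% of the run in G4 DNA-IPdenat, 29.2% in G4-ChIP, 13.7% in CTnuc, 25.9% in KDnuc, 46.7% in CTut, 73.2% in KDut, 64.9% in CTtr and 53.4% in KDtr. KDnuc had the most peaks of all and covered less than G4-ChIP, which had 328. The median length of a peak of the run was 996.5 bp in CTnuc and 1112 bp in KDnuc, against 3215 bp in CTut, 6045 bp in KDut, 3944 bp in CTtr and 3190.0 bp in KDtr. G4-ChIP had a median of 2547 bp. In the MinION AbC lists and G4-ChIP the run's peaks were longer than those of the whole list, whose medians were 1652 bp in CTtr, 1643 bp in KDtr, 1813 bp in KDut, 1958.5 bp in CTut and 1679 bp in G4-ChIP. In CTnuc (986 bp) and G4 DNA-IPdenat (1748 bp in the run, 1715 bp in the list) the run's peaks had about the length of the list's. All AbC lists were called at the same bandwidth. Between their nuc and MinION members the platform and the treatment with control DNA differ and cannot be told apart. Peak numbers are also absent from the nuc lists, as given under Other observations. G4-ChIP differs from the MinION AbC lists in protocol, shRNA, control DNA, bandwidth and the stated background option, which cannot be told apart either. Reference bases were covered by G4 DNA-IPdenat (0.547%) and KDnuc (0.00672%) alone.

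**Figure D1:**
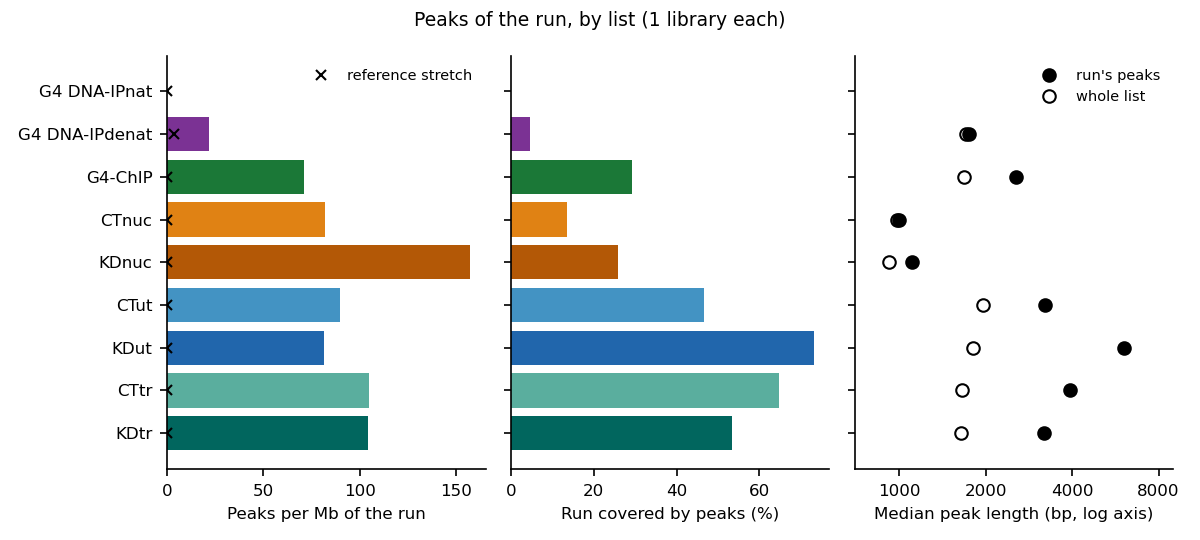
Peaks per Mb of the run (bars) and of the reference stretch (crosses), the percentage of the run's bases covered, and the median peak length in the run (filled) and the whole list (open, log axis), for each list with 1 library and no error bar. KDnuc has the highest density, 157 peaks per Mb, and KDut the highest cover, 73.2%.

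Peaks of the run followed each other at short distances. The median distance between neighbouring midpoints was 4873 bp in KDnuc, 7770 bp in CTtr, 7848 bp in KDtr, 7988 bp in CTnuc, 9027 bp in CTut, 10329 bp in KDut, 11334 bp in G4-ChIP and 24595 bp in G4 DNA-IPdenat. The coefficient of variation of these distances was lowest in G4-ChIP (0.633) and KDnuc (0.72) and highest in CTtr (1.28). Over the 46 windows of 0.1 Mb, the variance of the peak count divided by its mean was 0.507 in KDnuc and 0.664 in G4-ChIP and 1.90 in CTnuc. The longest gap without a peak in the run was 15.5 kb in CTtr, 17.8 kb in KDut and 73.3 kb in CTnuc, and 284 kb in G4 DNA-IPdenat.

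The lower edge of the run was sharp. The earliest peak inside the bound began at chr13:61741998 (G4-ChIP) and the latest first peak at chr13:61748422 (CTnuc), so that 8 first peaks began within 6.42 kb of one another. Just inside the bound the fold of these peaks lay between 3.21 in CTut and 5.10 in CTnuc. The last peak before the bound was 43.5 Mb upstream in CTnuc, CTut, KDut, CTtr and KDtr, 24.0 Mb upstream in G4-ChIP, 4.39 Mb upstream in KDnuc and 0.415 Mb upstream in G4 DNA-IPdenat. Its fold was 20.7 in CTnuc and 9.86 in KDtr, and 3.98 in G4 DNA-IPdenat. PCDH20 ends 326 kb before the earliest first peak, so the edge lay in intergenic sequence.

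The upper bound was no edge. The last peak inside and the next one after it were 1.73 kb apart in KDut, 1.80 kb in CTtr, 2.60 kb in CTut, 6.49 kb in KDnuc, 8.17 kb in KDtr, 11.0 kb in CTnuc, 23.6 kb in G4-ChIP and 118 kb in G4 DNA-IPdenat. Their folds on both sides lay between 3.28 and 5.14. In the 2 Mb past the bound, which hold PCDH9, peaks of the AbC and G4-ChIP lists covered between 17.4% and 85.8% of the bases, and from 2.5 to 4 Mb past it between 0.502% and 7.98%.

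**Figure D2:**
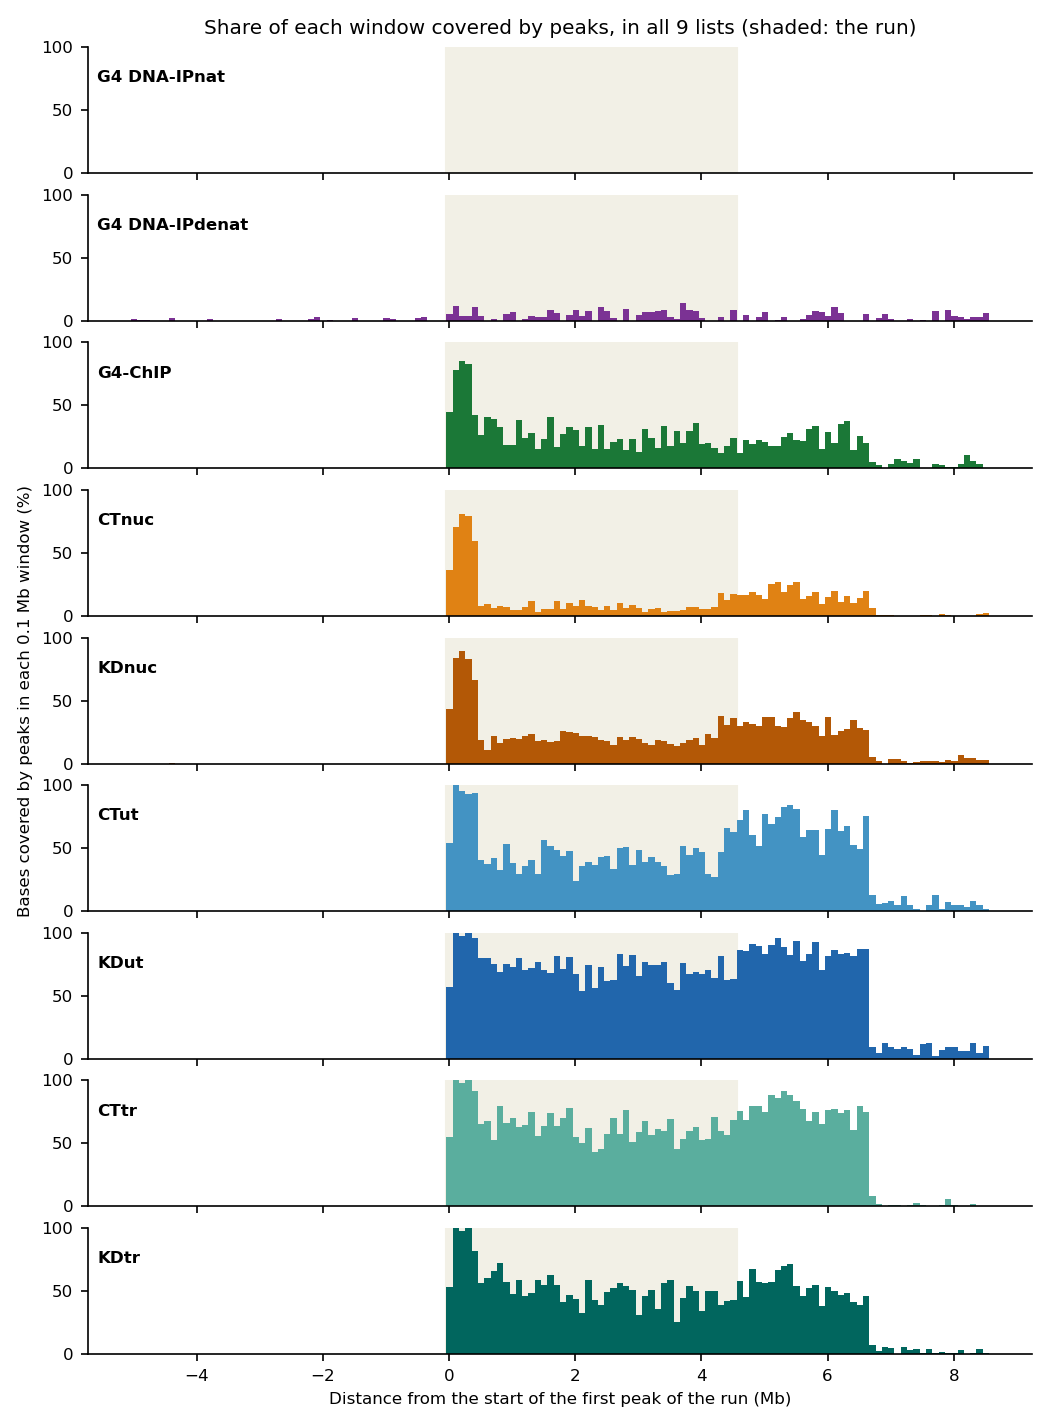
Percentage of bases covered by peaks in windows of 0.1 Mb, against the distance in Mb from the start of the earliest peak of the run, for all 9 lists with the run shaded. Cover starts at the same place in the AbC and G4-ChIP lists, is highest over the opening 0.432 Mb and goes on past the upper bound, while G4 DNA-IPnat is empty.

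Inside the run, an opening stretch stood apart from the rest. Its end was found after the data had been seen, as the split of the first 1 Mb that best separates covered from uncovered bases, and the median over the AbC and G4-ChIP lists gave chr13:61741998-62173997, a length of 432 kb. The split fell within 431 and 448 kb of the first peak in the 6 AbC lists, at 371 kb in G4-ChIP and at 130 kb in G4 DNA-IPdenat. In this stretch peaks covered 77.1% of the bases in G4-ChIP, 75.6% in CTnuc, 83.8% in KDnuc, 96.4% in CTut, 99.3% in KDut, 98.8% in CTtr and 98.4% in KDtr. Between its end and the last 0.3 Mb of the run the cover was 24.96% in G4-ChIP, 6.63% in CTnuc, 19.0% in KDnuc, 40.7% in CTut, 71.4% in KDut, 62.0% in CTtr and 49.9% in KDtr. Since the end was chosen on cover in these same lists, this contrast restates the choice and is a description only. G4 DNA-IPdenat covered 7.49% there and 4.44% afterwards. In the last 0.3 Mb the cover was higher again in CTnuc (16.2%), KDnuc (34.7%) and CTut (58.5%), whereas G4-ChIP (18.1%) and KDtr (41.2%) were lower than before.

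The opening stretch was written as a few very long peaks in the MinION AbC lists. KDut had 2 peaks centred in it, CTtr 3, KDtr 4 and CTut 7, and their longest measured 218 kb in KDut, 214 kb in CTtr, 212 kb in KDtr and 195 kb in CTut. CTnuc had 80 peaks there with the longest at 18.9 kb, and KDnuc had 63 with the longest at 29.5 kb. The length-weighted mean fold was also highest there, at 5.05 against 3.70 in the middle of the run in KDut, 4.67 against 3.57 in CTtr, 5.03 against 4.09 in KDtr, 4.27 against 3.41 in CTut, 5.22 against 4.65 in CTnuc, 5.28 against 4.57 in KDnuc and 4.97 against 4.70 in G4-ChIP. In G4 DNA-IPdenat it was lower there, 5.51 against 5.73. The stretch was chosen on the cover of these same peaks, so its fold is a description and no separate support. The long peaks of KDut, CTtr and KDtr shared a break at chr13:61961164-61963235, 2072 bp with a GC content of 12.7%, which no G4-ChIP, CTut or G4 DNA-IPdenat peak covered either. CTnuc covered 13.7% of this break and KDnuc 17.7%. GC in the opening stretch was 34.6% against 34.2% in the middle of the run, and triplets were 16.6 against 15.3 per kb. The canonical signature was denser in the opening stretch than in the middle, with 24 occurrences, or 55.6 per Mb against 32.4. The reference stretch, nearly empty of peaks, held 61.8 per Mb.

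The fold of the run's peaks was modest. In the AbC lists and G4 DNA-IPdenat peaks were called with no local background, so a fold there is not corrected for local input. Fold is the mean enrichment of a peak over the background, as the peak caller gave it. Its median was 4.62 in G4-ChIP (lowest 4.45, highest 6.10), 4.68 in CTnuc (4.33 to 6.04), 4.55 in KDnuc (4.11 to 6.07), 3.37 in CTut (3.08 to 4.77), 3.65 in KDut (3.19 to 5.23), 3.54 in CTtr (3.21 to 4.77) and 4.05 in KDtr (3.64 to 5.16). In these 7 lists the lowest fold of the run was the lowest of the whole list. Outside the run the medians were 4.61 in G4-ChIP, 5.36 in CTnuc, 4.71 in KDnuc, 4.27 in CTut, 3.76 in KDut, 4.01 in CTtr and 4.33 in KDtr, so the run's median was lower in the 6 AbC lists and nearly equal in G4-ChIP. G4 DNA-IPdenat went the other way, with a median of 5.33 in the run (3.91 to 10.3), 4.66 outside it and 4.60 over its 40 reference peaks, a difference of 0.73 from the reference. That difference was 0.15 over peaks with -log10 q of at least 4 and 1.27 with length-weighted medians. The single reference peak of KDnuc had a fold of 6.47, so the run's median minus it was -1.92, and no other list has a reference peak to compare. The share of the run's peaks with a -log10 q of at least 4 was 50.5% in G4 DNA-IPdenat, against 26.5% of that whole list. In the AbC and G4-ChIP lists this share lay between 1.86% in CTtr and 30% in KDtr, below that of each whole list (16.6% in G4-ChIP to 67.2% in CTut). Reads and input libraries over the stretch were not analysed here.

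The peaks of highest fold lay in different places. CTnuc had its highest, 6.04, at chr13:62003879-62005432, over an exon of the long non-coding RNA LINC00358, inside the opening stretch. KDnuc had its highest, 6.07, at chr13:65348847-65349760, which is intergenic. CTut (4.77), KDut (5.23), CTtr (4.77) and KDtr (5.16) all had theirs in the opening stretch. G4 DNA-IPdenat had its highest, 10.3, at chr13:63083225-63084099, in an intron of the lncRNA ENSG00000273550. By fold, the best peak of the run ranked 78th of 1455 in G4-ChIP, 244th of 15709 in G4 DNA-IPdenat and 518th of 2927 in KDut. It ranked 1159th of 3796 in CTnuc, 1267th of 7753 in KDnuc and 1201st of 3496 in CTut. In the tr pair it ranked 591st of 2367 in CTtr and 571st of 2389 in KDtr.

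Whether the lists marked the same bases was read from the shared bases of a pair, divided by the product of the shares of the run that each list covers. This ratio is 1 where the bases are shared as often as the covers alone give. Over the whole run it was 2.44 for CTnuc with KDnuc, 1.80 for G4-ChIP with CTnuc and 1.38 for G4-ChIP with KDnuc, and it lay between 1.07 and 1.16 for the 6 pairs among the MinION AbC lists. Without the opening stretch the ratio was 1.04 for G4-ChIP with CTnuc and 0.97 for G4-ChIP with KDnuc. CTnuc with KDnuc kept the highest value, 1.68, and the other 20 pairs of AbC and G4-ChIP lists lay between 0.96 and 1.16. Beyond the opening stretch, pairs other than the nuc pair thus shared bases about as often as their covers give. The ratio cannot exceed 1 divided by the larger cover of a pair. In that part KDut covered 71.3% of the bases, CTtr 62.0%, KDtr 49.2%, KDnuc 20.1% and CTnuc 7.33%. Pairs with a widely covering list had less room above 1, so their values cannot be ranked against that of the nuc pair. For the cover of 0.1 Mb windows beyond the opening stretch, Spearman's rho over 41 windows had a median of 0.08 over 28 pairs of lists, from -0.27 for KDnuc with KDtr to 0.52 for CTnuc with KDnuc. It was also above 0.3 for G4-ChIP with KDtr (0.37), CTtr with KDtr (0.37), KDut with KDtr (0.36), G4 DNA-IPdenat with CTut (0.36) and CTnuc with CTut (0.31). These are descriptions over windows of 1 chromosome that share their base composition.

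G4 DNA-IPdenat shared few bases with the nuc lists beyond the opening stretch. Without the opening stretch, 0.662% of its covered bases lay in CTnuc peaks, which cover 7.33% of that sequence, and 5.26% lay in KDnuc peaks, which cover 20.1%. The ratios were 0.09 and 0.26. Over the whole run they were 0.63 and 0.58. The lowest values thus hold for the part beyond the opening stretch, whose end was set after the data had been seen. The share of peaks overlapping by 1 bp, divided by the partner's cover, was 1.11 and 1.17 over the whole run. A whole peak is touched more easily than a single base, so 1 is not the neutral value of that measure. Without the opening stretch, the ratios of shared bases with the MinION lists were 0.68 for G4-ChIP, 0.74 for KDtr, 0.97 for KDut, 1.08 for CTtr and 1.19 for CTut.

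**Figure D3:**
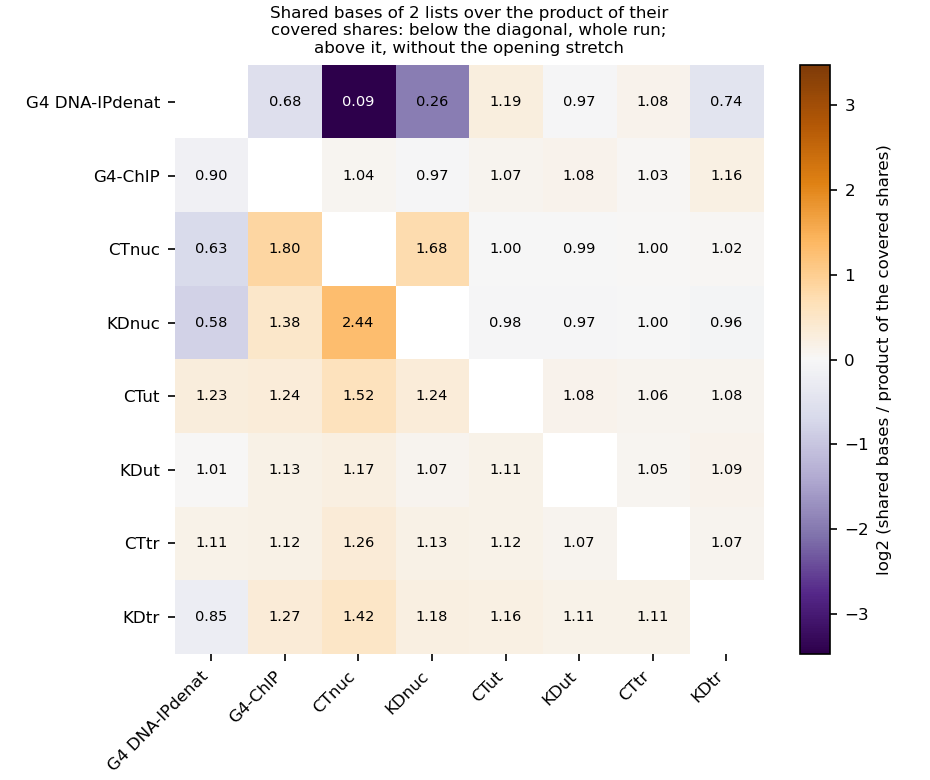
Bases shared by a pair of lists divided by the product of the shares they cover, over the whole run (below the diagonal) and without the opening stretch (above it), with colour on a log2 scale. Above the diagonal the AbC and G4-ChIP pairs lie between 0.96 and 1.16, apart from CTnuc with KDnuc at 1.68, and G4 DNA-IPdenat with CTnuc is at 0.09.

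Counted by peak, overlap was frequent where the partner covers much of the run. Among the run's CTut peaks, 391 of 412 were overlapped by KDut by at least 1 bp, 94.9%, against 54.9% of the whole CTut list. For KDut peaks overlapped by CTut the figures were 306 of 374, 81.8%, and 62.6%. In the tr pair, 408 of 483 CTtr peaks (84.5%) and 438 of 480 KDtr peaks (91.3%) had an overlap, against 68.9% and 73.1% of the whole lists. The nuc pair was below its background in both directions. There 225 of 376 CTnuc peaks (59.8%) were overlapped by KDnuc, against 72% of the whole list, and 209 of 724 KDnuc peaks (28.9%) by CTnuc, against 33.7%. Of the 99 G4 DNA-IPdenat peaks, 38 were overlapped by G4-ChIP (38.4%), against 2.05% of that list. G4-ChIP covers 29.2% of the run, and a whole peak is touched by 1 bp more easily than a single base is.

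At the level of bases, 8 lists together covered 13816 bp, 0.30% of the run, in 10 stretches, all of them inside the opening stretch. Among them were chr13:61920784-61922802 and chr13:62062426-62064203, both intergenic, with 40.1% and 36.0% GC. Each base of chr13:61899027-61929972 (30946 bp), chr13:62144873-62173103 (28231 bp, 41.1% GC) and chr13:62072122-62091179 (19058 bp, 32.2% GC) was covered by at least 6 of the 7 AbC and G4-ChIP lists. The covering lists changed along each stretch: CTnuc covered 87.4% of the first, G4-ChIP 76.2% of the second and CTnuc 82.6% of the third. The first of these stretches holds the processed pseudogene ENSG00000270856. Peaks of no list covered 205869 bp, 4.48% of the run.

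The run as a whole was poor in G and C. Its GC content was 34.4%, against 37.1% in the reference stretch and 38.6% in chromosome 13. It held 15.6 GGG or CCC starts per kb against 19.7, and 162 canonical signatures, 35.2 per Mb against 61.8. The signature began in 3.37% of the 1 kb tiles of the run and in 5.55% of those of the reference stretch. The stretch with the dense peaks was thus the one with fewer guanine runs.

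Within the run the lists split by base content. The bases inside peaks were richer in GC than those outside in CTnuc (36.1% against 34.1%), KDnuc (36.2% against 33.8%) and G4 DNA-IPdenat (37.3% against 34.3%). They were poorer in G4-ChIP (33.6% against 34.7%), CTut (34.0% against 34.7%), KDut (33.9% against 35.8%), CTtr (34.0% against 35.1%) and KDtr (33.4% against 35.5%). Triplets went the same way, with 17.6 per kb inside and 15.3 outside in CTnuc and 14.0 inside and 17.5 outside in KDtr. The sign of the GC difference was that of the platform among the AbC lists, positive in both Ion Torrent lists and negative in all 4 MinION lists. The Ion Torrent lists also had no control DNA. In the run they lack peak numbers, 448 of 824 in CTnuc and 565 of 1289 in KDnuc. The part of the platform, the control DNA or the absent peaks in the sign was not tested. Without the opening stretch the differences had the same signs, from 2.68 percentage points in KDnuc to -2.34 in KDtr. Of the 162 canonical signatures, peaks of CTnuc touched 15.4%, of KDnuc 26.5%, of G4-ChIP 32.7%, of CTut 45.1%, of KDtr 46.3%, of CTtr 58.0% and of KDut 69.8%, against covers of 13.7%, 25.9%, 29.2%, 46.7%, 53.4%, 64.9% and 73.2%. The widest gap was in G4 DNA-IPdenat, which touched 28 signatures, 17.3%, with a cover of 4.65%.

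Sequence that recurs in the genome set G4 DNA-IPdenat apart from the other lists. The authors kept uniquely aligned reads, so the share of bases that start a 31-mer found again on chromosomes 1 to 22 and X was counted. This measure was added after the data had been seen. It was 44.7% inside the G4 DNA-IPdenat peaks and 8.28% outside them, while in the other 7 lists it was lower inside than outside, from 7.08% against 10.4% in CTnuc to 9.12% against 11.5% in CTtr. At least 50% of the bases were of this kind in 36 of the 99 G4 DNA-IPdenat peaks, and in 12 of 376 CTnuc peaks, 14 of 328 G4-ChIP peaks and 33 of 724 KDnuc peaks. In the reference stretch it was 33 of the 40 G4 DNA-IPdenat peaks, and 77.6% of their bases against 11.4% of the rest.

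**Figure D4:**
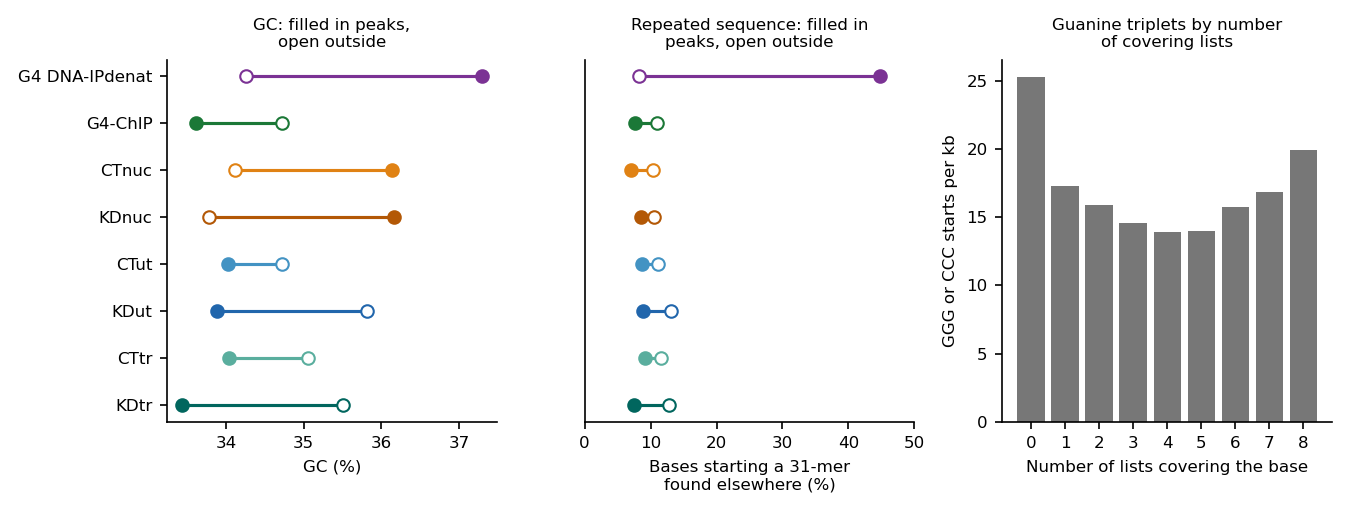
GC content and share of bases starting a 31-mer found elsewhere in the genome, inside peaks (filled) and outside (open) for 8 lists, and GGG or CCC starts per kb by the number of lists covering a base. G4 DNA-IPdenat is the list with repeated sequence in its peaks, 44.7%, and the bases covered by no list have the most triplets, 25.3 per kb.

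On average, the bases covered by no list had more GGG and CCC triplets than those covered by any number of lists. Bases covered by no list had 37.2% GC and 25.3 triplets per kb, bases covered by 4 lists 33.6% and 13.9, and bases covered by 8 lists 39.5% and 19.9. After the empty end before the earliest peak, the longest uncovered stretches were chr13:63837183-63845918 (8736 bp, 54.8% GC, 99.4 triplets per kb), chr13:64075456-64079318 (3863 bp, 56.5% GC, 50.2 triplets per kb) and chr13:63738814-63742608 (3795 bp, 60.1% GC, 121 triplets per kb). The first and the last of these overlap the olfactory receptor pseudogenes OR7E104P and OR7E156P, and the second overlaps an exon of the lncRNA LINC00355. In the same 3 stretches 35.2%, 25.9% and 41.6% of the bases started a 31-mer found elsewhere, against 9.97% in the whole run, and its part in the missing peaks was not tested. The triplet-rich KDnuc peak shown above, chr13:63738056-63738813, ends next to the last of them and had a fold of 4.31. It has 75.2 triplets per kb, and no other list covered any of it. Of its bases, 59.8% started a 31-mer found elsewhere. Of the canonical signatures of the run, 13 were touched by no list, which is 8.02%, where 4.48% of the bases were uncovered.

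Genes are sparse in the run, and the share of covered bases in gene bodies was near or below that of the run. GENCODE version 44 places 35 genes wholly inside it: 17 lncRNAs, 10 processed pseudogenes and 2 unnamed protein-coding models among them. Gene bodies take 21.6% of its bases and exons 0.891%. Of the covered bases, gene bodies held between 14.7% in CTnuc and 21.7% in KDtr, and exons between 0.0234% in G4 DNA-IPdenat and 0.856% in KDnuc. Gene starts lay in peaks for 3 of the 35 genes in CTnuc (8.57%), 9 in G4-ChIP and in KDnuc (25.7%), 10 in CTut (28.6%), 15 in KDtr (42.9%) and 16 in KDut and in CTtr (45.7%), and for none in G4 DNA-IPdenat. Each of these shares was below the cover of the list in the run, in KDnuc by little (25.7% against 25.9%). LINC00358, the lncRNA of the opening stretch at chr13:61997136-62029572, was covered by 80.1% in G4-ChIP, 83.0% in CTnuc, 82.5% in KDnuc, 86.0% in CTut and 100% in KDut, CTtr and KDtr. LINC00355, which takes chr13:63851197-64076044, was covered by 21.9% in G4-ChIP, 9.20% in CTnuc, 21.8% in KDnuc, 39.2% in CTut, 64.6% in KDut, 58.7% in CTtr and 52.5% in KDtr. Its cover was below that of the run in all 7 lists, by the least in KDtr. The run's cover includes the opening stretch, in which LINC00355 does not lie. Against the cover beyond that stretch, it was higher in CTnuc (7.33% there), KDnuc (20.1%) and KDtr (49.2%) and lower in the other lists. PCDH9, the next named coding gene, lies on the minus strand, with its 3′ end 2.83 kb past the upper bound.

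With all listed peaks, the KD lists did not differ from the CT lists in a common direction across the 3 pairs. The density was 81.7 peaks per Mb in CTnuc and 157 in KDnuc, 89.6 in CTut and 81.3 in KDut, and 105 in CTtr and 104 in KDtr. It was higher in KD in 1 of 3 pairs, with a mean log2 ratio of 0.27 ± 0.59 (SD, n = 3 pairs). The cover was 13.7% in CTnuc and 25.9% in KDnuc, 46.7% in CTut and 73.2% in KDut, and 64.9% in CTtr and 53.4% in KDtr, higher in 2 of 3 pairs with a mean log2 ratio of 0.43 ± 0.63 (SD, n = 3 pairs). The share of a list's peaks that lay in the run was 9.91% and 9.34% in the nuc pair, 11.8% and 12.8% in the ut pair and 20.4% and 20.1% in the tr pair, a mean log2 ratio of 0.0031 ± 0.10 (SD, n = 3 pairs). The median fold was higher in KD in the ut and tr pairs, with a mean log2 ratio of 0.09 ± 0.12 (SD, n = 3 pairs). A two-sided exact sign-flip permutation test over the pairs gave p = 1 for density, 1 for the share, 0.5 for cover and 0.5 for fold, and 1 for each of the 4 after Benjamini-Hochberg adjustment. The smallest p that 3 pairs allow is 0.25, so this design cannot reach 0.05. When only peaks with -log10 q of 4 or more were kept, the share and the cover were higher in KD in all 3 pairs, with mean log2 ratios of 1.48 and 0.92 (exact sign-flip p = 0.25 for each, the smallest possible). The density was then higher in KD in the nuc and tr pairs and lower in the ut pair, with a mean log2 ratio of 1.46 (exact sign-flip p = 0.5). These values rest on 50 peaks in CTnuc and 102 in KDnuc, 98 in CTut and 63 in KDut, and 9 in CTtr and 144 in KDtr. With the tr pair left out, the mean log2 ratio at this q was 0.44 for the share, 0.74 for cover and 0.20 for density.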

How the data were processed

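Broad peak lists of 9 immunoprecipitations were used; the 7 input libraries, reads and signal tracks were not analysed here, and the sequencing depth of the lists is unknown from the files, so intervals rest on numbers of peaks. Reads had been aligned by the authors to chromosomes 1 to 22 and X of hg38, and uniquely aligned reads kept; the methods and GEO's processing notes name minimap2, while the supplement names bowtie2 for the Ion Torrent reads. Peaks had been called by the authors against the input with MACS2, with the default bandwidth for G4-ChIP and G4 DNA-IPnat; for denatured DNA and the AbC lists the bandwidth was wider and no local background was used. The fold of each peak is the ratio deposited by the authors, and its q-value is deposited by the authors on the -log10 scale.

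The members, measures and lists were chosen with earlier results of these data known. Groups followed the GEO labels. Peaks were counted by midpoint, and cover, sharing and base content were computed base by base on hg38; overlaps needed 1 bp. KD was compared with CT by an exact sign-flip test over the 3 pairs, whose numbers come from the labels: nuc, ut and tr name a platform and a treatment with control DNA that both members of a pair share. Named regions were, for each list, the peak of highest fold and the peaks next to each bound, and the 3 longest stretches covered by the most lists and by at least 6 of the 7 AbC and G4-ChIP lists. Of these, 2 regions and their sequences are not reported here. Alternatives were a -log10 q of at least 4, other membership rules, bounds moved inward by 0.5 Mb and leaving out each pair; those with the opening stretch left out, with peak numbers and with the tr pair left out at the stricter q were added after the data had been seen. All 14 checks on simulated data were recovered. Python 3.11.15, numpy 2.4.6, pandas 2.3.3, scipy 1.17.1 and matplotlib 3.10.9 were used.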

Additional observations from a re-analysis of the deposited data

Results flagged for a closer look

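In 3 measures the KD to CT contrast of the run pointed one way in some pairs and the other way in the rest. These differences were not tested, since a group of pairs has 1 or 2 members. The density was higher in KD in the nuc pair (log2 ratio 0.95) and was lower in KD in both MinION pairs (-0.14 in ut and -0.01 in tr), so that the mean of the MinION pairs was lower than that of the nuc pair by 1.02 on the log2 scale (-1.02). The cover was higher in KD in the nuc (0.92) and ut (0.65) pairs and lower in the transfected tr pair (-0.28), a difference of -1.07. The median fold was lower in KD in the nuc pair (-0.04) and higher in the ut (0.11) and tr (0.20) pairs, a difference of 0.19.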

How the results depend on the processing

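The density of the run stayed above that of the reference under each alternative, in each of the 8 lists with peaks there, and the GC differences kept their signs. The run was chosen by its density, so the first of these was set by the choice and is a description only. G4 DNA-IPnat gave no value, and the covered share and fold could be set against the reference in G4 DNA-IPdenat and KDnuc alone. With peaks of -log10 q of 4 or more, the density ratio was 15.9 in G4 DNA-IPdenat and 259 in KDnuc, and at least 23.7 in G4-ChIP, 42.4 in CTnuc, 83.1 in CTut, 53.4 in KDut, 7.63 in CTtr and 122 in KDtr. Against all chromosomes but 13 it was 4.14 in G4 DNA-IPdenat, 79.2 in CTnuc, 75.5 in KDnuc, 97.3 in CTut, 128.8 in KDut, 197 in CTtr and 202 in KDtr, and with the bounds moved inward it was at least 243 in CTnuc. The ratio of covered shares with the stricter q was 33.1 in G4 DNA-IPdenat and 1251 in KDnuc. The fold difference from the reference was 1.27 in G4 DNA-IPdenat with length-weighted medians, and with the stricter q 0.15 there and -1.23 in KDnuc. The GC difference over the central 1000 bp of peaks was 2.62 percentage points in G4 DNA-IPdenat, -1.29 in G4-ChIP, 2.25 in CTnuc, -0.78 in CTut, -1.85 in KDut and -2.41 in KDtr. With the stricter q it was 3.57 in G4 DNA-IPdenat, -3.39 in G4-ChIP, 1.40 in CTnuc, 2.11 in KDnuc, -0.54 in CTut, -1.99 in KDut and -0.43 in CTtr. In place of shared bases, the share of peaks overlapping by 1 bp gave 1.32 for G4 DNA-IPdenat with G4-ChIP, 1.30 for CTut with KDut and 1.58 for CTtr with KDtr. The neutral value of this measure lies above 1, since a whole peak is touched more easily than a single base. The share of peaks at least 50% covered gave 1.90 for CTnuc with KDnuc and 0.96 for CTtr with KDtr. The causes were not tested.

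For KD over CT, leaving out 1 pair at a time gave mean log2 ratios from -0.074 (without the nuc pair) to 0.47 for density, from -0.054 (without the ut pair) to 0.047 for the share of the list's peaks, from 0.18 to 0.79 for cover and from 0.04 to 0.16 for fold. Counting the nuc pair by its peak numbers turned the share to -0.10. Without the replicate block, that is with the pairing ignored, the mean log2 ratio of density was 0.27 as before, and an exact permutation of the labels gave p = 0.7 for density, 1 for the share, 0.6 for cover and 0.6 for fold, where 0.1 is the smallest p possible. Neither design can reach 0.05, so no call was possible with or without the block.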

Other observations

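The peak names of the nuc lists are numbered along the genome, and numbers are absent from both. In the run, the 376 CTnuc peaks span 824 numbers, of which 448 are absent, and the 724 KDnuc peaks span 1289, of which 565 are absent. In the other lists of the run no number is absent. Between the last peak before the run and the earliest inside it, 43.5 Mb apart, 2 numbers are absent in CTnuc. Counted by the numbers spanned, the density of the run was 179 per Mb in CTnuc and 280.2 in KDnuc. The share of numbers that are listed was 45.6% in the run and 35.3% overall in CTnuc, and 56.2% and 34.8% in KDnuc. What the absent peaks held was not analysed here.

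Of the opening stretch, the pseudogene RAC1P8 at chr13:61805150-61805676 was covered by 100% in G4-ChIP, KDnuc, CTut, KDut, CTtr and KDtr and by 82.5% in CTnuc. Of the rest of the run, 6 of the 7 AbC and G4-ChIP lists had no peak over the pseudogene STARP1, which KDnuc covered by 30.7%. The unnamed coding model ENSG00000285566 was covered by no list.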
